A study of Homo sapiens with 6 samples.

Results

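The cyclins, kinases and pocket proteins that set the passage from G1 into S phase were described in MDA-MB-231 cells after knockdown of the long non-coding RNA MIR100HG. The set was chosen by name and function, though with earlier results of these data known. It holds 10 genes of the 27745 in the count table. It comprises the D-type cyclins CCND1, CCND2 and CCND3, the E-type cyclins CCNE1 and CCNE2, the kinases CDK4 and CDK6, and the pocket proteins RB1, RBL1 and RBL2. All 10 passed the filter on low counts and were among the 15372 genes tested.

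MDA-MB-231 is an established line of human breast cancer cells of the triple-negative type. Sequencing of RNA was done on 6 samples of it in 3 groups, with 2 replicates each: cells infected with lentivirus carrying the control construct sh-TRC, and cells infected with a pLKO.1 lentivirus carrying sh-MIR100HG-1 or sh-MIR100HG-2. All groups therefore share the line and the infection, and both knockdown groups share the same 2 control samples. The question was which genes change when MIR100HG is depleted, and total counts ranged from 43804736 to 64588388 per sample. RNA was taken from whole cultures, so a shift in the share of cells in a phase and a change in RNA per cell cannot be told apart, and protein and phosphorylation were not analysed here.

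In early G1, D-type cyclins bind CDK4 or CDK6, and these complexes begin to phosphorylate the retinoblastoma protein, which otherwise holds E2F transcription factors inactive. Cyclin E, itself made from E2F target genes, then acts with CDK2 to complete that phosphorylation, and the cell enters S phase. The relatives of RB1, RBL1 (p107) and RBL2 (p130), bind the repressor E2Fs, and RBL2 is the pocket protein known for the DREAM complex of quiescent cells. MDA-MB-231 is known to lack CDKN2A and CDKN2B, the genes of INK4 inhibitors of CDK4 and CDK6, through a homozygous deletion.

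The MIR100HG locus hosts miR-100, let-7a-2 and miR-125b-1, and let-7 is known for its action on transcripts of G1 regulators. The sequences that could tie the locus or the constructs to the members are shown here 5′ to 3′, with bases 2 to 8, the seed, in capitals; those of the microRNAs are from RefSeq and those of the guide strands from the study's list of constructs. None of the 5 shares a seed with another.
hsa-let-7a-5p: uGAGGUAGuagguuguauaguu
hsa-miR-100-5p: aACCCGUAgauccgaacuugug
hsa-miR-125b-5p: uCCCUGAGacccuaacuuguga
sh-MIR100HG-1 guide: aTTTAAGTacaaacagaggaa
sh-MIR100HG-2 guide: tTTATTCTgtaggtcactctc

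None of the 10 members held a match to bases 2 to 8 of the 3 microRNAs in its annotated 3′UTR, read on the sense strand of 1 transcript per gene. A second kind of site, a match to bases 2 to 7 followed by an A, was searched after the first had found none. For let-7a-5p this site is TACCTCA. It occurred 2 times in CCND1, 3 times in CCND2, 1 time in CDK6 and 1 time in RB1, and in none of the other 6 members, against 12% of the 13972 3′UTRs of tested genes with at least 1 such site. Long 3′UTRs hold more sites by length alone. Among 3′UTRs of similar length (0.8 to 1.25 times that of the member), the site was found in 19.1% for CCND1, 30.4% for CCND2, 51.9% for CDK6 and 12% for RB1. The sites are shown with 11 bases on each side, the site in capitals, and the coordinates of the site itself in GRCh37.
CCND1 (chr11:69468264-69468270, plus strand): ctgtttcacaaTACCTCAtgcttcactta
CCND1 (chr11:69468923-69468929, plus strand): cggctcacgctTACCTCAaccatcctggc
CCND2 (chr12:4411158-4411164, plus strand): ggagtattcttTACCTCAggtttactgga
CCND2 (chr12:4411225-4411231, plus strand): tgttttcataaTACCTCAcaaccgtacag
CCND2 (chr12:4414088-4414094, plus strand): cttatatcatgTACCTCAgatctctctct
CDK6 (chr7:92243594-92243600, minus strand): tttagggagtgTACCTCAgatagatttta
RB1 (chr13:49054893-49054899, plus strand): aacagatttcaTACCTCAgaatgtaaaag

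CDK6, with the longest 3′UTR of the members at 10219 bases, was also the only member with a match to bases 2 to 8 of both guide strands. The match to the sh-MIR100HG-1 guide (ACTTAAA) lay at chr7:92238639-92238645, and that to the sh-MIR100HG-2 guide (AGAATAA) at chr7:92243955-92243961. Each is found in 72.0% of 3′UTRs of similar length to that of CDK6. CCND2 and RB1 held a match to the sh-MIR100HG-1 guide alone, found in 47.7% and 20.9% of 3′UTRs of similar length. The second kind of site for that guide, CTTAAAA, occurred in CCND2, CCNE2, CDK6 and RB1. The shares at similar length were 61.5%, 23.1%, 87.4% and 28.9%. No member held the second kind of site for the sh-MIR100HG-2 guide. These matches are descriptions of letters, and the microRNAs themselves were not analysed here. The paper reports that overexpression of MIR100HG left the levels of the hosted microRNAs unchanged by qPCR in MDA-MB-231 cells.

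The knockdown was present in all samples labelled as such. MIR100HG was measured at 41.8 and 58.5 CPM (counts scaled to 1e6 per TMM-normalized library) in the control samples, 15.2 and 13.2 CPM with sh-MIR100HG-1, and 16.6 and 10.4 CPM with sh-MIR100HG-2. Of the markers of the line, VIM was between 1606 and 2094 CPM, CD44 between 538 and 957 CPM, EPCAM between 4.36 and 13.0 CPM, CDH1 between 1.499 and 7.05 CPM, ERBB2 between 71.6 and 116 CPM, and PGR at 0 or 1 count. Of the markers of other cells, PTPRC (leukocytes) had 6 to 37 counts, while COL1A1 (fibroblasts) was at 20.2 and 17.2 CPM in the control samples and at 45.5 to 78.0 CPM after knockdown. PECAM1 was not analysed here, and the part of COL1A1-expressing cells in the results below was not tested.

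Control replicate 2 and sh-MIR100HG-1 replicate 1 stood apart from the other libraries. CDKN2A, which this line should lack, had 71 and 89 counts in them and 0, 0, 2 and 0 counts in the other 4, and CDKN2B had 22 and 18 counts against 0. ESR1 had 140 and 185 counts in these libraries and 6 to 25 counts elsewhere. In all, 76 genes had at least 20 counts in both of them and at most 2 counts in each of the others, and the same search found 0 genes for each of the other 14 pairs of libraries. The source of these reads was not tested. One of the 2 libraries is a control and the other a knockdown, so values without both are given beside the results of each member that moved most, and do not cover every comparison.

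Levels were first compared between the members per kb of counted exon length (RPKM, from the TMM-normalized counts and the deposited lengths). In the control samples, CCND1 stood first at 109.3 ± 1.03 RPKM (SD, n = 2), above 97.9% of the tested genes, followed by CCND3 at 47.2 ± 18.8 and CDK4 at 26.3 ± 3.84 RPKM. RB1 followed at 11.96 ± 2.17, RBL1 at 8.99 ± 1.57, CDK6 at 7.87 ± 0.568 and CCNE1 at 5.29 ± 1.12 RPKM. RBL2 (3.46 ± 1.07), CCNE2 (1.70 ± 0.278) and CCND2 (0.315 ± 0.166 RPKM) were lowest. The control samples of neighbours in this order did not overlap, with the exception of RBL1 and CDK6. CCND1 was thus the leading D cyclin and CDK4 the leading G1 kinase by RNA per kb, and CCND1 exceeded CCND2 by 347-fold. After knockdown CDK6 lay above RBL1 in all 4 samples, whereas RBL1 lay above CDK6 in 1 of all 6 samples, control replicate 1.

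**Figure D1:**
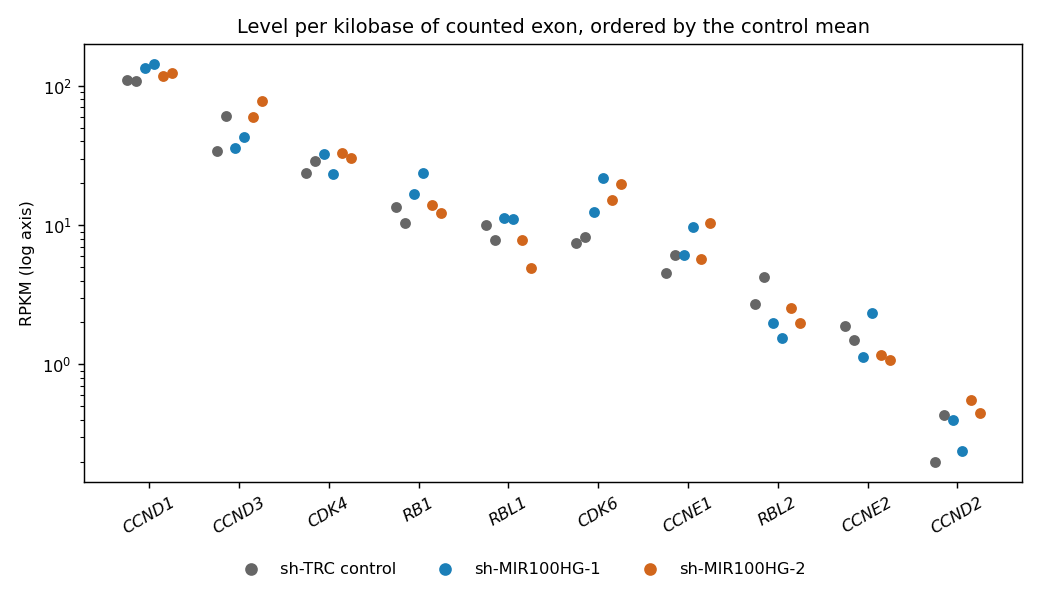
Level of the 10 members in each of the 6 samples (RPKM, log axis), 6 points per gene coloured by group, with genes in the order of the control mean. CCND1 lies above all other members in every sample and CCND2 below all others.

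No member passed an adjusted p of 0.05 in edgeR's quasi-likelihood test of knockdown against control, and nor did any other gene (0.0% of the 15372 tested, with a smallest adjusted p of 0.381). At an unadjusted p under 0.05 there were 2 members, CDK6 higher and RBL2 lower, against 7.68% of all genes (3.23% higher and 4.44% lower). With edgeR's likelihood ratio test 109 genes passed the adjusted threshold (0.709%), with DESeq2 130 genes (0.937% of 13881 with an adjusted p) and without the filter on low counts 392 genes (1.84% of 21349). CDK6 was the only member among the genes called in each of these. The median log2FC of the members was 0.21 and that of all genes tested −0.04.

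Looking at the samples without a model, all 4 knockdown samples lay above both controls for CCND1 and CDK6 and below both for RBL2. These 3 of 10 members compare with 17.5% of all genes tested (8.4% above and 9.07% below). In the other 7 members the knockdown and control samples overlapped. Without both CDKN2A-positive libraries the count was 6 members, now with CCND2, CCND3 and CCNE1 above the lone control, but 50.6% of all genes then did not overlap. In that setting 1 member had an unadjusted p under 0.05 for knockdown (4.96% of all genes), 1 for sh-MIR100HG-1 (3.08%), 2 for sh-MIR100HG-2 (8.33%) and 2 between the shRNAs (7.05%).

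**Figure D2:**
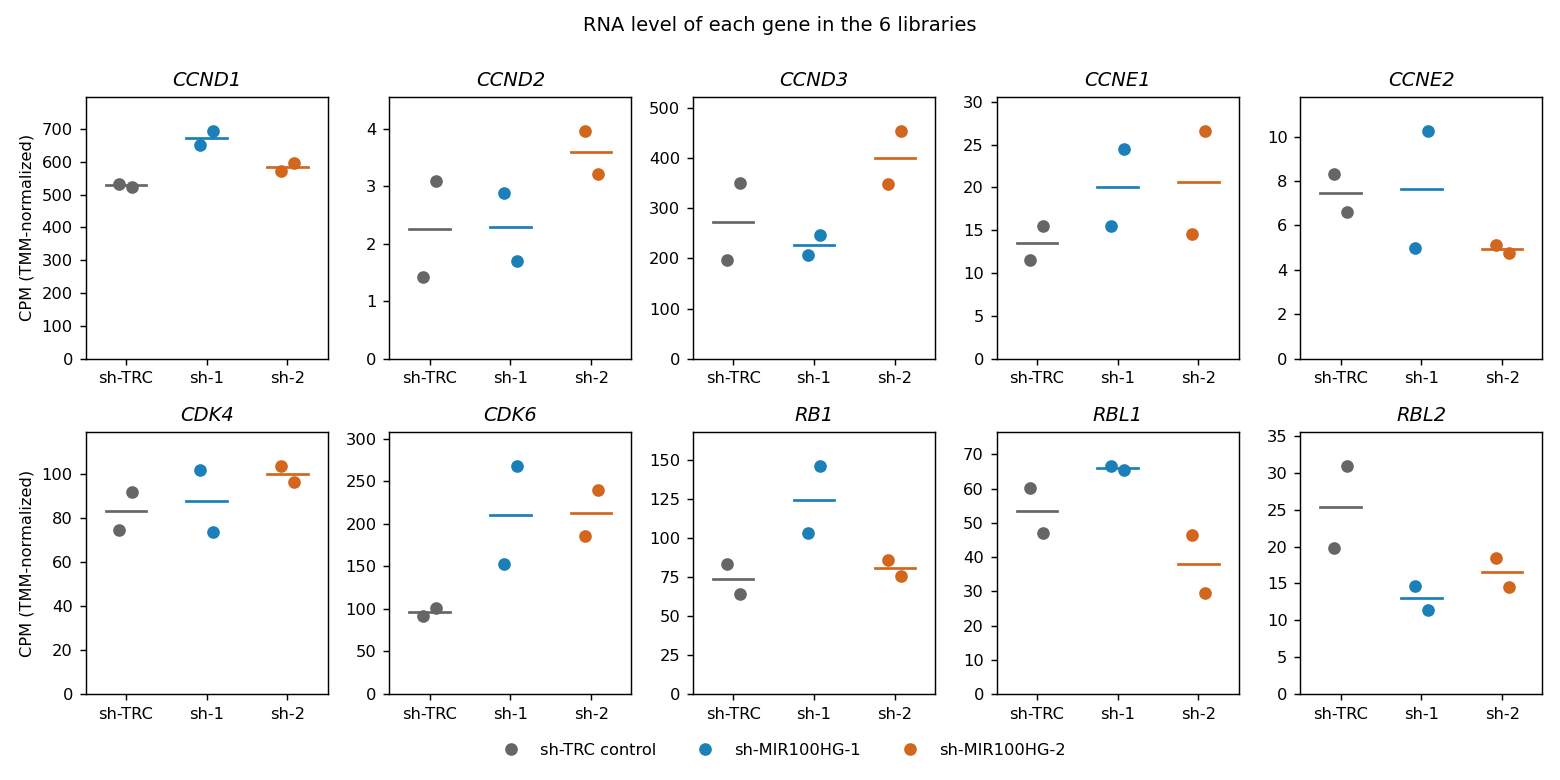
TMM-normalized CPM of each member in every sample, one panel per gene with its own axis from 0. Points are samples and bars the means of 2 replicates of sh-TRC, sh-MIR100HG-1 (sh-1) and sh-MIR100HG-2 (sh-2); the control points lie clear of all 4 knockdown points for CCND1, CDK6 and RBL2.

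Of the D-type cyclins, CCND1, which encodes cyclin D1, lies on the plus strand of chromosome 11 from 69455855 to 69469242 in GRCh37. It was measured at 532 and 525 CPM in the control samples, at 650 and 695 CPM with sh-MIR100HG-1, and at 571 and 597 CPM with sh-MIR100HG-2. The control samples were the lowest of the 6 and differed little, and the sh-MIR100HG-1 samples were the highest. The log2FC of knockdown against control was 0.25 (SE 0.16, 95% confidence interval −0.13 to 0.62, adjusted p = 0.764 in edgeR), so the difference was small and within the error of the fit. By shRNA the log2FC was 0.35 (SE 0.19) for sh-MIR100HG-1 and 0.14 (SE 0.19) for sh-MIR100HG-2. The paper reports lower cyclin D1 protein after knockdown, which is another measure than the RNA given here. Exons of LTO1 on the opposite strand cover 10.3% of the counted length of CCND1, and whether the counting used strand is not stated.

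CCND3, which encodes cyclin D3, lies on the minus strand of chromosome 6 from 41902671 to 42018095. It was at 197 and 351 CPM in the control samples, 207 and 248 CPM with sh-MIR100HG-1, and 349 and 455 CPM with sh-MIR100HG-2. The control samples alone spanned most of the range, and the higher of them is the library with CDKN2A counts. Knockdown against control gave a log2FC of 0.14 (SE 0.26, adjusted p = 0.927 in edgeR). The shRNAs differed in sign, with −0.27 (SE 0.30) for sh-MIR100HG-1 and 0.55 (SE 0.30) for sh-MIR100HG-2, and the difference between them was 0.82 (SE 0.30, 95% confidence interval 0.13 to 1.51, unadjusted p = 0.0250, adjusted p = 0.509). Without the filter on low counts the adjusted p of this difference was 0.0429, and over the 12 alternatives it ranged up to 0.802. Without both CDKN2A-positive libraries the log2FC of knockdown against control was 0.68 (unadjusted p = 0.0693), that of sh-MIR100HG-1 turned to 0.33, and that of sh-MIR100HG-2 was 1.03 (unadjusted p = 0.0137, adjusted p = 0.421 in edgeR). The difference between the shRNAs was then 0.70 (unadjusted p = 0.0726).

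CCND2, which encodes cyclin D2, lies on the plus strand of chromosome 12 from 4382938 to 4414516. It was hardly expressed, at 1.41 and 3.09 CPM in the control samples, 2.88 and 1.70 CPM with sh-MIR100HG-1, and 3.97 and 3.22 CPM with sh-MIR100HG-2. Both sh-MIR100HG-2 samples exceeded both controls, whereas the sh-MIR100HG-1 samples lay between them. The log2FC was 0.35 (SE 0.43), and its 95% confidence interval, −0.64 to 1.34, reaches from a level of 0.641 to one of 2.53 times the control. Leaving out both CDKN2A-positive libraries gave 0.80 for knockdown (unadjusted p = 0.213) and 1.34 for sh-MIR100HG-2 (unadjusted p = 0.0582, against 0.67 with all samples). CCND1 thus supplied nearly all D-cyclin RNA together with CCND3: its share of the summed RPKM of the 3 genes was 76.3% and 64.1% in the control samples, 78.9% and 77.0% with sh-MIR100HG-1, and 66.1% and 61.0% with sh-MIR100HG-2. The mean share differed by 0.542 percentage points between knockdown and control (exact permutation test over 15 splits, two-sided, p = 0.933, adjusted over 4 balance measures 0.933). This difference had no stable sign: it was −8.31 percentage points without both CDKN2A-positive libraries and ranged from −5.60 to 6.69 with single samples left out. The sh-MIR100HG-1 samples lay above both controls, and the sh-MIR100HG-2 samples overlapped with them. The summed level of the 3 genes was 144 and 170 RPKM in the control samples and 171 to 202 RPKM after knockdown.

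Of the E-type cyclins, CCNE1, which encodes cyclin E1, lies on the plus strand of chromosome 19 from 30302805 to 30315215. It was at 11.5 and 15.5 CPM in the control samples, 15.5 and 24.5 CPM with sh-MIR100HG-1, and 14.6 and 26.6 CPM with sh-MIR100HG-2. In each knockdown group 1 sample was at the level of the higher control and the other well above it. The log2FC was 0.59 (SE 0.32, 95% confidence interval −0.15 to 1.33, unadjusted p = 0.105, adjusted p = 0.704 in edgeR), with nearly equal values of 0.57 and 0.61 for the shRNAs. It was 0.97 (unadjusted p = 0.0562) without both CDKN2A-positive libraries.

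CCNE2, which encodes cyclin E2, lies on the minus strand of chromosome 8 from 95891998 to 95908906. It was at 8.34 and 6.61 CPM in the control samples, 4.997 and 10.3 CPM with sh-MIR100HG-1, and 5.14 and 4.75 CPM with sh-MIR100HG-2. The sh-MIR100HG-2 samples lay below both controls, and the sh-MIR100HG-1 samples were the second lowest and the highest of the 6. The log2FC was −0.28 (SE 0.33, adjusted p = 0.882 in edgeR). The shRNAs differed by −0.62 (SE 0.39, unadjusted p = 0.145), and by −1.05 when both CDKN2A-positive libraries were left out (unadjusted p = 0.0442, adjusted p = 0.690). Exons of INTS8 on the opposite strand cover 37% of the counted length of CCNE2, and INTS8 itself was between 2.92 and 4.1 RPKM, above CCNE2 at 1.08 to 2.34 RPKM. Values of CCNE2 are uncertain for that reason.

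Set against each other, the E cyclins gave a lower ratio in every knockdown sample. The log2 ratio of CCNE2 to CCNE1 (RPKM) was −1.248 and −2.02 in the control samples, −2.42 and −2.04 with sh-MIR100HG-1, and −2.29 and −3.27 with sh-MIR100HG-2. The nearest knockdown sample was below the lower control by a narrow margin. The mean difference was −0.87, with an exact two-sided permutation p of 0.133 (adjusted over the 4 balance measures, 0.267), and 0.0667 is the smallest p this design can give.

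Of the kinases, CDK6 lies on the minus strand of chromosome 7 from 92234235 to 92465908 and showed the largest difference of the 10 members. It was at 91.6 and 101 CPM in the control samples, 153 and 268 CPM with sh-MIR100HG-1, and 186 and 240 CPM with sh-MIR100HG-2. Every knockdown sample exceeded the higher control by more than the controls differed, and the replicates of sh-MIR100HG-1 differed most. CDK6 was 2.19-fold higher after knockdown (95% confidence interval 1.44 to 3.34), a log2FC of 1.13 (SE 0.27, unadjusted p = 0.00247, rank 85 of 15372 by p, adjusted p = 0.446 in edgeR's quasi-likelihood test). It passed with the likelihood ratio test (adjusted p = 0.0307), DESeq2 (0.0164) and without the filter on low counts (0.000698), and over the 12 alternatives the adjusted p ranged from 0.000698 to 0.934. The log2FC was the same for the shRNAs within error, 1.13 (SE 0.29) and 1.14 (SE 0.29), and their difference was 0.02 (95% confidence interval −0.65 to 0.68). CDK6 was higher by a log2FC of 1.38 without both CDKN2A-positive libraries (unadjusted p = 0.00200, adjusted p = 0.591).

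CDK4, the kinase with the higher level per kb, lies on the minus strand of chromosome 12 from 58141510 to 58149796. It was at 74.8 and 92.0 CPM in the control samples, 102 and 73.6 CPM with sh-MIR100HG-1, and 104 and 96.5 CPM with sh-MIR100HG-2. The sh-MIR100HG-1 samples lay on both sides of the controls and the sh-MIR100HG-2 samples above them. The log2FC was 0.17 (SE 0.21, 95% confidence interval −0.31 to 0.65, adjusted p = 0.887 in edgeR). Exons of TSPAN31 on the opposite strand cover 43.2% of the counted length of CDK4, and TSPAN31 was between 3.65 and 5.68 RPKM, below CDK4 at 23.2 to 32.7 RPKM.

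The balance of the kinases mostly restates the values of CDK6, as CDK4 had a log2FC of only 0.17. The ratio of CDK6 to CDK4 (RPKM) was 0.316 and 0.285 in the control samples, 0.387 and 0.940 with sh-MIR100HG-1, and 0.462 and 0.644 with sh-MIR100HG-2. In sh-MIR100HG-1 replicate 2 the kinases were close to equal per kb, and in the other samples CDK4 led. This order depends on the division by counted length, 12260 bases for CDK6 and 3168 for CDK4. In CPM, CDK6 lay above CDK4 in every sample. On the log2 scale the means differed by 0.93 (exact permutation test, two-sided, p = 0.133, adjusted over the 4 balance measures 0.267). The summed level of the kinases was 31.1 and 37.3 RPKM in the control samples and 44.8 to 50.0 RPKM after knockdown. All 4 knockdown samples thus lay above both controls, but this was not tested, and 17.5% of single genes tested did not overlap.

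**Figure D3:**
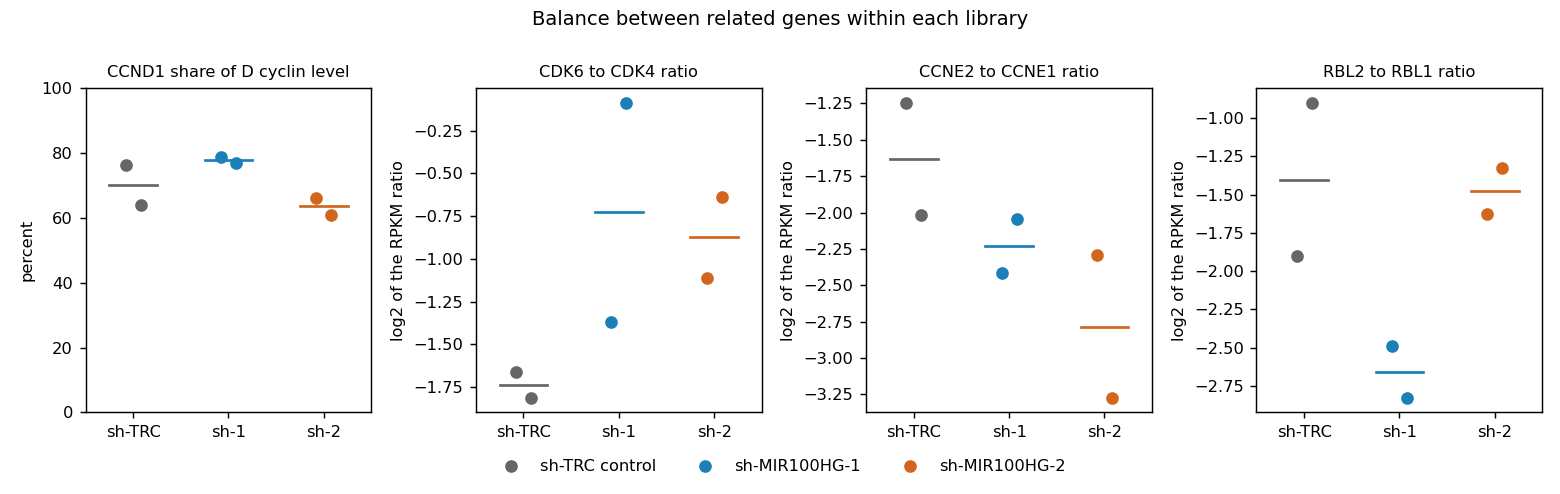
The 4 balance measures in each sample, one panel each, with points for samples and bars for the mean of each group of 2. The CDK6 to CDK4 ratio is above both controls in all 4 knockdown samples and the CCNE2 to CCNE1 ratio below both, while the CCND1 share and the RBL2 to RBL1 ratio overlap.

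Of the pocket proteins, RB1, the retinoblastoma gene, lies on the plus strand of chromosome 13 from 48877887 to 49056122. It was at 83.3 and 64.4 CPM in the control samples, 103 and 146 CPM with sh-MIR100HG-1, and 86.1 and 75.7 CPM with sh-MIR100HG-2. The sh-MIR100HG-1 samples were the highest of the 6, and the sh-MIR100HG-2 samples were close to the controls. The log2FC was 0.44 (SE 0.22, unadjusted p = 0.0789, adjusted p = 0.679 in edgeR) for knockdown against control, 0.76 (SE 0.25, unadjusted p = 0.0165, adjusted p = 0.714) for sh-MIR100HG-1 and 0.13 (SE 0.25) for sh-MIR100HG-2. The shRNAs differed by −0.63 (SE 0.25, unadjusted p = 0.0373, adjusted p = 0.509), and by −0.86 without both CDKN2A-positive libraries (unadjusted p = 0.0259), where the value of sh-MIR100HG-2 turned to −0.04.

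RBL2, which encodes p130, lies on the plus strand of chromosome 16 from 53467889 to 53525561. It was at 19.8 and 30.9 CPM in the control samples, 14.6 and 11.4 CPM with sh-MIR100HG-1, and 18.5 and 14.5 CPM with sh-MIR100HG-2. All 4 knockdown samples were below both controls, but the control samples differed more from each other than the lower of them did from the sh-MIR100HG-2 samples. The log2FC was −0.79 (SE 0.26, 95% confidence interval −1.38 to −0.21, unadjusted p = 0.0138, adjusted p = 0.554 in edgeR), or a level of 0.577 times the control. It was −0.96 (SE 0.31) for sh-MIR100HG-1 and −0.62 (SE 0.30) for sh-MIR100HG-2, a difference of 0.34 (95% confidence interval −0.35 to 1.04). The size of this value depended on both controls: the log2FC was −0.44 without control replicate 2 (unadjusted p = 0.198), −1.08 without control replicate 1 (unadjusted p = 0.00767), and −0.53 without both CDKN2A-positive libraries (unadjusted p = 0.209), where that of sh-MIR100HG-2 was −0.26. Exons of AKTIP on the opposite strand cover 8.3% of the counted length.

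RBL1, which encodes p107, lies on the minus strand of chromosome 20 from 35624752 to 35724398. It was at 60.2 and 46.9 CPM in the control samples, 66.6 and 65.5 CPM with sh-MIR100HG-1, and 46.3 and 29.5 CPM with sh-MIR100HG-2. The sh-MIR100HG-1 samples were thus above both controls and the sh-MIR100HG-2 samples below both, a pattern that 298 of the tested genes (1.94%) had in this or the opposite sense. The log2FC was 0.30 (SE 0.27) for sh-MIR100HG-1 and −0.50 (SE 0.27) for sh-MIR100HG-2, and the shRNAs differed by −0.80 (SE 0.27, 95% confidence interval −1.42 to −0.18, unadjusted p = 0.0173, adjusted p = 0.509 in edgeR). Their mean against control was −0.10 (SE 0.23, adjusted p = 0.945), in which the opposite values cancel, and −0.27 without both CDKN2A-positive libraries.

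Of the 7 members with a listed promoter, RBL1 alone held a match to an E2F motif. The letters TTTCCCGC, TTTCGCGC, TTTGCCGC and TTTGGCGC were searched on both strands in the RefSeq promoters of GRCh38.p14, 250 bases before to 50 after each start, of which 3.31% of 35116 hold at least 1. The promoters of CCND1, CCND2 and CCNE2 were not analysed here. For RB1 the only window listed, chr13:48476200-48476499, was not checked to lie at the start of the counted gene. Its lack of a motif is therefore no result for RB1. The 2 motifs of RBL1 stand 26 and 16 bases before the start site and do not overlap each other. The window around the upstream one is shown because it contains both, with that motif in capitals.
RBL1 (chr20:37096005-37096034, minus strand): cagctgcagatTTTCGCGCgctttggcgca

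As shares of the summed RPKM of the pocket proteins, RB1 took 51.3% and 46.3% in the control samples, 55.9% and 65.4% with sh-MIR100HG-1, and 57.5% and 63.9% with sh-MIR100HG-2. All 4 knockdown samples were above both controls, but this was not tested, and 17.5% of single genes tested did not overlap. RB1 itself overlapped. With sh-MIR100HG-2 its log2FC was 0.13, while those of RBL1 (−0.50) and RBL2 (−0.62) were below 0. RBL2 took 10.3% and 18.7% in the control samples and 4.28% to 10.4% after knockdown. The log2 ratio of RBL2 to RBL1 was −1.90 and −0.90 in the control samples, −2.49 and −2.83 with sh-MIR100HG-1, and −1.62 and −1.32 with sh-MIR100HG-2. The sh-MIR100HG-2 samples lay between the controls, and the mean difference of −0.66 gave an exact two-sided permutation p of 0.333 (adjusted 0.444).

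**Figure D4:**
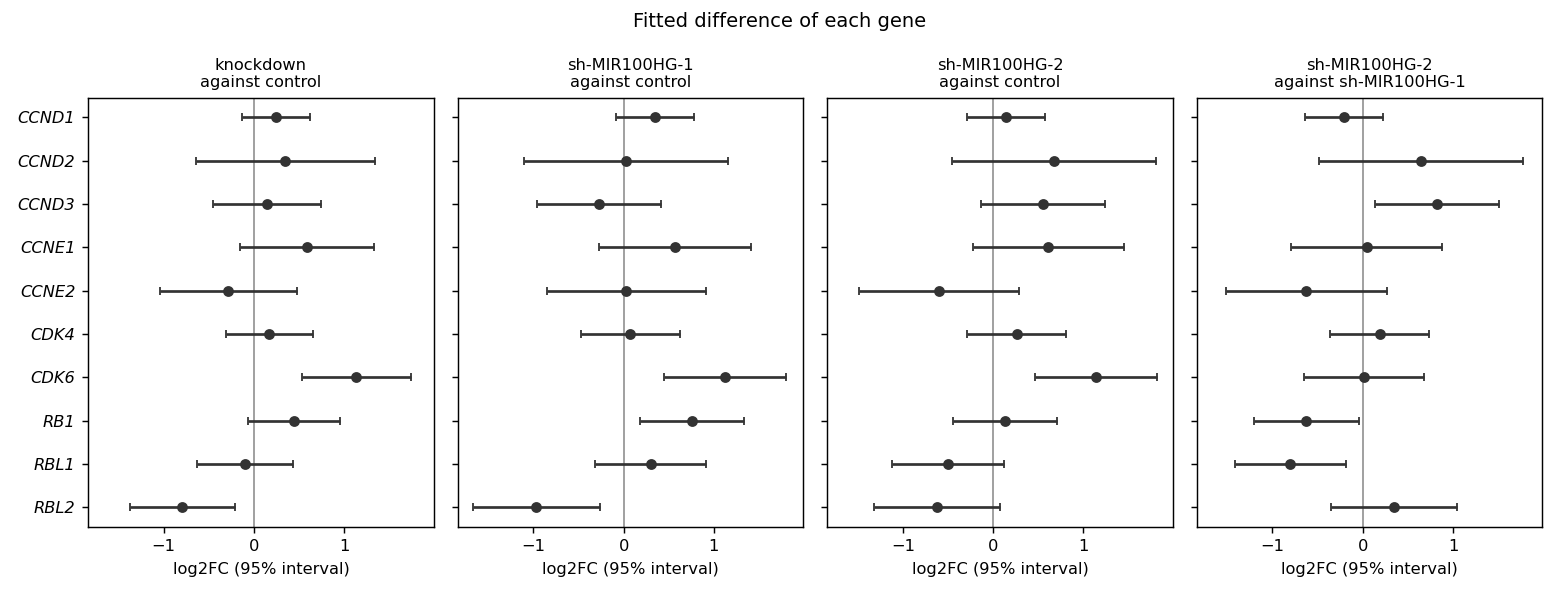
Fitted log2FC of each member in 4 panels (knockdown, sh-MIR100HG-1 and sh-MIR100HG-2 against control, then the shRNAs against each other), with points for the estimates, bars for 95% confidence intervals and a line at 0. CDK6 is the only member whose intervals lie above 0 for each shRNA, and RBL1, CCND3 and CCNE2 have values of opposite sign for the shRNAs.

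Counting by shRNA at the same unadjusted threshold, 3 members passed for sh-MIR100HG-1 (CDK6 and RB1 higher, RBL2 lower; 6.87% of all genes) and 1 for sh-MIR100HG-2 (CDK6; 8.86% of all genes). In the test of the shRNAs against each other there were 3 members (CCND3 higher, RB1 and RBL1 lower with sh-MIR100HG-2; 9.45% of all genes). None passed the adjusted threshold in these 3 comparisons in edgeR's quasi-likelihood test, as did no other gene (0.0% in each). CDK6 passed without the filter on low counts for sh-MIR100HG-1 (adjusted p = 0.00823, where 1.06% of genes passed) and sh-MIR100HG-2 (0.00205, where 2.42% passed), and CCND3 passed there between the shRNAs, as did 3.18% of genes. For CDK6, CCNE1 and CCND1 the differences between the shRNAs were 0.02, 0.04 and −0.20 on the log2 scale.

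The other genes of the pathway were taken from a list of 83 regulators, partners and targets in 9 roles, of which 80 were tested. None passed the adjusted threshold, 8 were higher and 2 lower at an unadjusted p under 0.05 (12.5% of the list against 7.68% of all genes), and the median log2FC was 0.12. The list was chosen with earlier results of these data known, and the paper names CDKN1B and CDC25A as changed in the same data. The share above that of all genes therefore cannot be read as a result about the pathway. The paper's rule for changed genes was a log2FC beyond 2 in size with an FDR at or below 0.05, unlike the unadjusted threshold here. It also reports higher p27 after knockdown by qPCR and western blot. Of 7 CDK inhibitors, 5 were tested and 1 was higher: CDKN1B, which encodes p27, was at 61.5 and 73.9 CPM in the control samples and at 94.7 to 154 CPM after knockdown (log2FC 0.87, adjusted p = 0.503 in edgeR). CDC25A, the phosphatase that activates CDK2, was 1 of 4 in its group, with 28.98 and 36.3 CPM in the control samples, 66.8 to 132 CPM after knockdown and a log2FC of 1.57 (adjusted p = 0.381).

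Of 11 tested genes of ubiquitin ligases of G1 cyclins or p27, or of factors linked to these ligases, 2 were higher. SKP2, of the ligase that marks p27 for degradation, had a log2FC of 1.28 (adjusted p = 0.381), and FBXW7, of the ligase that acts on cyclin E, one of 0.86 (adjusted p = 0.446). Of 10 genes of E2F factors and their DP partners, the repressor E2F7 was higher (0.77, adjusted p = 0.615) and the activator E2F2 lower (−0.97, adjusted p = 0.645). Among 19 E2F targets of the G1/S transition, 1 was higher, the replication licensing factor CDC6 (0.61, adjusted p = 0.642), which is 5.26% of the group, and 13 of the 19 had a log2FC above 0.

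The remaining groups held few such genes. The MuvB core, which RBL1 and RBL2 bind, had 0 of 5. Regulators of D cyclins had 1 of 10, the transcription factor STAT3 (0.78, adjusted p = 0.476), and RB-interacting chromatin factors 1 of 9, the remodeller SMARCA4 (0.53, adjusted p = 0.615). Among 7 other cyclins and CDKs, CCNA1, which encodes cyclin A1, was lower (−1.23, adjusted p = 0.626) at 3.01 and 2.72 CPM in the control samples and 0.485 to 1.69 CPM after knockdown. CDK2, the partner of cyclin E, was at 102 and 98.2 CPM in the control samples and at 94.4 to 147 CPM after knockdown (log2FC 0.25, adjusted p = 0.844).

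The genes whose values across the 6 samples were most like those of the 3 members without overlap were found by the root mean square difference of their centred log2 CPM. For CCND1 these were KDM4A (0.0146), SET (0.0297) and TAF4 (0.0362). For CDK6 they were STX3 (0.0580), TGFBR2 (0.0704) and ANKRD33B (0.0898), of which TGFBR2, the type II TGF-β receptor, was at 301 and 314 CPM in the control samples and at 517 to 857 CPM after knockdown. For RBL2 they were SPSB2 (0.0690), SLC45A4 (0.0726) and FOXD3 (0.0790). This is a description over 6 samples.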

How the data were processed

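The authors deposited raw counts per gene for 6 samples, with exon lengths. According to the methods, reads were mapped to GRCh37 with STAR (version 2.5.2a in the submitters' processing notes) and a GENCODE annotation lifted to that build, and counted over exons with FeatureCounts. Strandedness and the handling of multiply mapped reads are not given in the sources used here. A same-build annotation named 26966 of the 27745 genes.

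Genes with under 5 counts in at least 3 samples were removed (12373 genes). The 15372 others were TMM-normalized and tested with edgeR 4.0.16 (R 4.3.3) by the quasi-likelihood method in a single model of 3 groups, with 3 residual degrees of freedom, a prior of 5.37 and a common biological coefficient of variation of 27.8%. The mean of both shRNA groups, and each of them, was compared with control, and the shRNAs with each other. Adjusted p-values are those of Benjamini and Hochberg across the genes tested, with a threshold of 0.05. Confidence intervals are at 95% and cover the spread between samples. The replicates are biological ones by the study's account, but whether they came from separate infections is not stated, so p-values measure the spread between these samples. Replicates differed beyond counting error (chi-square per degree of freedom of 119 to 166).

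CPM values are TMM-normalized, RPKM values are these per kb of deposited length, and balance measures were compared by exact permutation tests with scipy 1.17.1. Alternatives were edgeR's likelihood ratio test and bias-adjusted fit, DESeq2 1.42.0, another normalization, no filter, a replicate block and leaving out each sample. The analysis without control replicate 2 and sh-MIR100HG-1 replicate 1 was added after seeing the data. The count test was tested on simulated data for knockdown against control. It called 29.2% of genes with a log2FC of 1 in size, 83.6% at 2 and 98.4% at 3, and 2.17% of calls were false. A gene that was not called may therefore still differ. The simulated counts were independent between samples, and the spread of each gene was set by its level alone. In the real data same-numbered knockdown samples correlated at 0.50 in their deviations, so these rates may be too favourable for the real data. Named are all members, cell markers, pathway genes at an unadjusted p under 0.05, and the 3 genes most like CCND1, CDK6 and RBL2; MIR100HG checks the knockdown, and CDK2 was named after its values were seen. The members and lists were chosen with earlier results of these data known.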

Additional observations from a re-analysis of the deposited data

Results flagged for a closer look

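RBL1 was marked for a closer look because the shRNAs, which target the same transcript, stood on opposite sides of the control. Its difference between sh-MIR100HG-2 and sh-MIR100HG-1 was −0.80 on the log2 scale (SE 0.27, unadjusted p = 0.0173, adjusted p = 0.509 in edgeR's quasi-likelihood test), with both sh-MIR100HG-1 samples above and both sh-MIR100HG-2 samples below both controls. The difference was −1.16 without sh-MIR100HG-2 replicate 1 and −0.51 without sh-MIR100HG-2 replicate 2, and −0.79 without both CDKN2A-positive libraries (unadjusted p = 0.0604). MIR100HG itself differed little between the shRNAs, with a log2FC of −0.07 (95% confidence interval −0.76 to 0.62). The cause was not tested.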

How the results depend on the processing

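Of 480 values of members under the alternatives (10 genes, 4 comparisons and 12 settings), 456 kept their direction and their side of the adjusted threshold, 6 passed it and 18 reversed. The number of genes called, 0 in each comparison, became 109, 34, 121 and 91 by likelihood ratio, 130, 66, 167 and 103 with DESeq2, and 392, 227, 517 and 679 without the filter on low counts, in the order knockdown, sh-MIR100HG-1, sh-MIR100HG-2 against control and the shRNAs against each other. The cause was not tested. Leaving out 1 sample at a time it was 0 to 3 for sh-MIR100HG-1, 0 to 4 for sh-MIR100HG-2 and 0 to 7 between the shRNAs. Without both CDKN2A-positive libraries it was 2, 0, 14 and 15.

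In the same order, the numbers of members at an unadjusted p under 0.05 were 2, 3, 1 and 3 with all samples. The shares of all genes were 7.68%, 6.87%, 8.86% and 9.45%. The member numbers moved up or down when single samples were left out. The share of all genes was not found in those settings, so the moved numbers are not given. Members without overlap numbered 3 with all samples, against 17.5% of all genes tested. Without both CDKN2A-positive libraries 50.6% of all genes did not overlap. The share over all genes was not found for the other settings, so their member counts are not given.

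Replicate numbers did not pair control with knockdown samples. Deviations of same-numbered samples correlated at −0.21 (control and sh-MIR100HG-1) and 0.02 (control and sh-MIR100HG-2). Between the shRNAs they correlated at 0.50, so same-numbered knockdown samples shared part of their deviation and may not be independent. The source of this shared part was not tested. With a replicate block 0 genes were called in each comparison, and CCNE2 with sh-MIR100HG-1 turned to −0.015. The share of all genes at an unadjusted p under 0.05 was not found with the block, so member counts are not given for it. CCNE1 for knockdown had an unadjusted p of 0.0299 with the block (log2FC 0.55, adjusted p = 0.441 in edgeR), against 0.105 without it.

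Log2FC values whose sign depended on single samples ranged as follows. For knockdown, CCND2 ranged from −0.11 to 1.02, CCND3 from −0.22 to 0.62 and RBL1 from −0.28 to 0.092. For sh-MIR100HG-1, CCND2 ranged from −0.43 to 0.70, CCND3 from −0.63 to 0.21, CCNE2 from −0.59 to 0.46 and CDK4 from −0.18 to 0.28. For sh-MIR100HG-2, RB1 ranged from −0.042 to 0.33. Between the shRNAs, CCNE1 ranged from −0.45 to 0.43, CDK4 from −0.016 to 0.44 and CDK6 from −0.33 to 0.49. CDK6 against control ranged from 0.90 to 1.31, and for sh-MIR100HG-1 from 0.66, without its replicate 2, to 1.47. Without both CDKN2A-positive libraries the reversed values were 0.33 for CCND3 and −0.023 for CDK4 with sh-MIR100HG-1, −0.042 for RB1 with sh-MIR100HG-2, and −0.25 for CCNE1 and −0.33 for CDK6 between the shRNAs. The difference in CCND1 share ranged from −5.60 to 6.69 percentage points with single samples left out and was −8.31 without both CDKN2A-positive libraries.

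With 2 samples in a group, a value without 1 of them rests on the spread of the other groups. CCND2 had the fewest counts of the members, 72 to 191 per sample.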
